A study of Homo sapiens with 2 samples.

Results

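Nucleolar ribosome biogenesis genes encode the proteins that transcribe, modify, cut and fold ribosomal RNA. The set held 40 genes, chosen by name from known nucleolar and pre-rRNA processing proteins and RNA polymerase I subunits. Of these, 39 had at least 1 listed transcript, out of 12918 genes in the table, and BOP1 was not analysed here. The choice of genes was made with earlier results of these data known. The study used MDA-MB-231, a human cell line from triple-negative breast cancer that the labels call epithelioid. At 48 h after transfection, cells given a Smart Silencer against the long noncoding RNA THAP7-AS1 were compared with cells given Si-NC as the control. A Smart Silencer joins siRNAs with antisense oligonucleotides in one product. Each group was 1 library of total RNA, so no difference has a replicate check or a p-value, and every statement describes these 2 libraries.

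The column headed si-v was taken as the silencer library by elimination, since the other is headed si-nc, and is named si-v below. The level of THAP7-AS1 itself was not analysed here, so neither the silencing nor this assignment was checked, and each direction given depends on it. Its neighbour THAP7 stood at 1.6 FPKM in the si-v library and 1.5 FPKM in the control library. The markers expected in this mesenchymal line were present in both libraries, with VIM at 373 and 344 FPKM in si-v and control and AXL at 204 and 259 FPKM. ESR1 was listed at 0 in both, CDH1 stood at 0.122 and 0.0845 FPKM, and GATA3 at 2.18 and 2.65 FPKM, while ERBB2 stood at 17.4 FPKM in the si-v library and 4.65 FPKM in the control library. The fibroblast marker PDGFRB stood at 0.641 and 1.01 FPKM. PGR, a marker expected to be low in this line, was not analysed here, nor were 5 markers of stromal, blood and vessel cells. The part of these marker differences in the results below was not tested.

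Ribosome production begins in the nucleolus, where RNA polymerase I copies the ribosomal DNA into a long precursor. Small nucleolar ribonucleoproteins (snoRNPs) modify this precursor, and large assemblies cut and fold it into the small (40S) and large (60S) subunits as ribosomal proteins join. Dividing cancer cells usually make many ribosomes, and many genes of this pathway are known targets of the transcription factor MYC, which binds the E-box CACGTG. MYC itself stood at 7.75 FPKM in the si-v library and 7.79 FPKM in the control library when all its listed transcripts were summed, a log2 ratio of -0.01. It was 0.61 when only the most abundant transcript was read and -0.30 on fragments with a pseudocount, from about 105 fragments in si-v and 122 in control, and the counting interval of -0.71 to 0.07 held 0.

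As a set, these genes stood slightly but broadly higher in the si-v library. Because the set was chosen with earlier results of these data known, the shares below describe it and are no test. In such bulk RNA a difference in the kinds of cells present and one in RNA per cell cannot be told apart. FPKM values (fragments per transcript length and sequencing depth) were summed over the listed transcripts of a gene, and the log2 ratio was log2 of si-v + 1 over control + 1. On this scale 32 of the 39 genes were above 0 (82.1%), against 50.4% of the 11046 genes that reached 1 FPKM in at least 1 library. The median log2 ratio was 0.36 for the set and 0.0037 for all these genes. The largest differences were upward, and 3 of the 39 were 2-fold or more higher (7.69%, against 2.37% of all genes), namely SDAD1, NOLC1 and PES1. By the same rule 0 of the 39 were lower (against 2.49% of all genes). At 1.5-fold, 11 were higher (28.2%, against 9.82%), and PPAN alone was lower (2.56%, against 8.91%). The count of 11 became 7 with a pseudocount of 5, where 4.10% of all genes were 1.5-fold higher, and 7 with the GC content trend removed, where 7.83% were. All 39 also passed 5 FPKM. When the libraries were scaled to the same sum without the mitochondrially encoded genes, 31 were higher, UTP20 moved to -0.05, and the set's median was 0.30 against -0.05 for all genes.

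**Figure D1:**
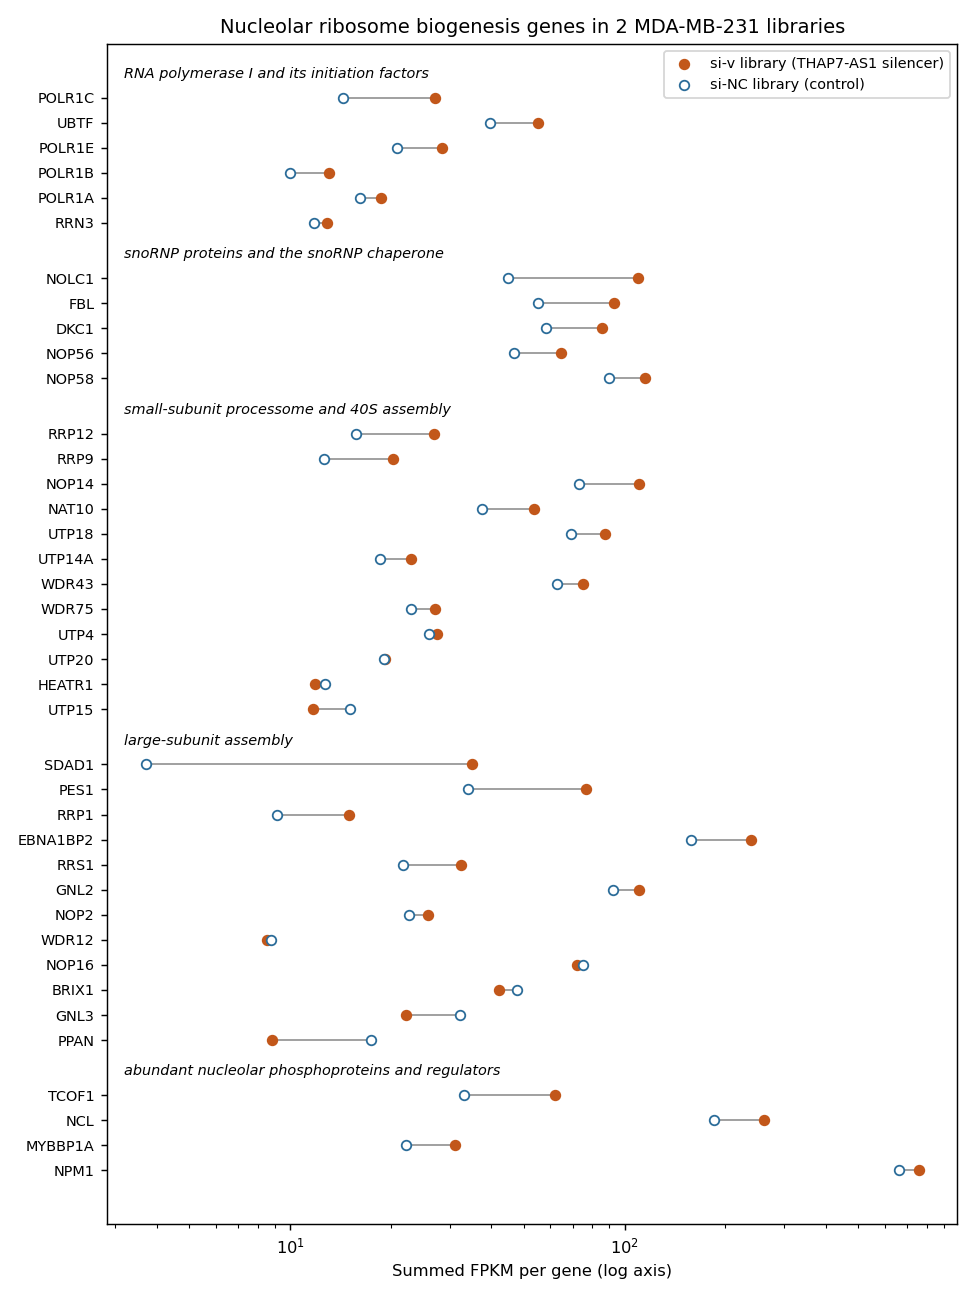
Summed FPKM of 39 nucleolar ribosome biogenesis genes (log axis) in the si-v library (filled) and the si-NC control library (open), 1 library each, ordered within roles by ratio. The si-v point lies right of the control point for 32 genes, and the longest gap is that of SDAD1, at 34.9 and 3.70 FPKM.

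Levels ranged from 8.51 to 758 FPKM in the si-v library and from 3.70 to 661 FPKM in the control library. The set's median level was 32.4 FPKM in the si-v library and 25.9 FPKM in the control library, against 9.29 and 9.44 FPKM for all genes past 1 FPKM, so these are well expressed transcripts. A second scale used fragments: FPKM times transcript length, divided by the worth of 1 fragment, which was read from a peak among low values and makes the numbers approximate. The thinnest value behind a gene was 131 fragments in the si-v library and 126 in the control library. On fragments, the 95% counting interval of the log2 ratio lay wholly above 0 for 28 of the 39 genes (71.8%, against 29.6% of all genes past 1 FPKM) and wholly below 0 for 4 (10.3%, against 30.8%). It held 0 for the other 7. Such intervals narrow as fragments rise. The set's levels were above those of all genes, and these shares were not matched for level. These exact Clopper-Pearson intervals cover counting error within 2 libraries. They leave out the spread between cultures and the way reads were divided among transcripts.

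**Figure D2:**
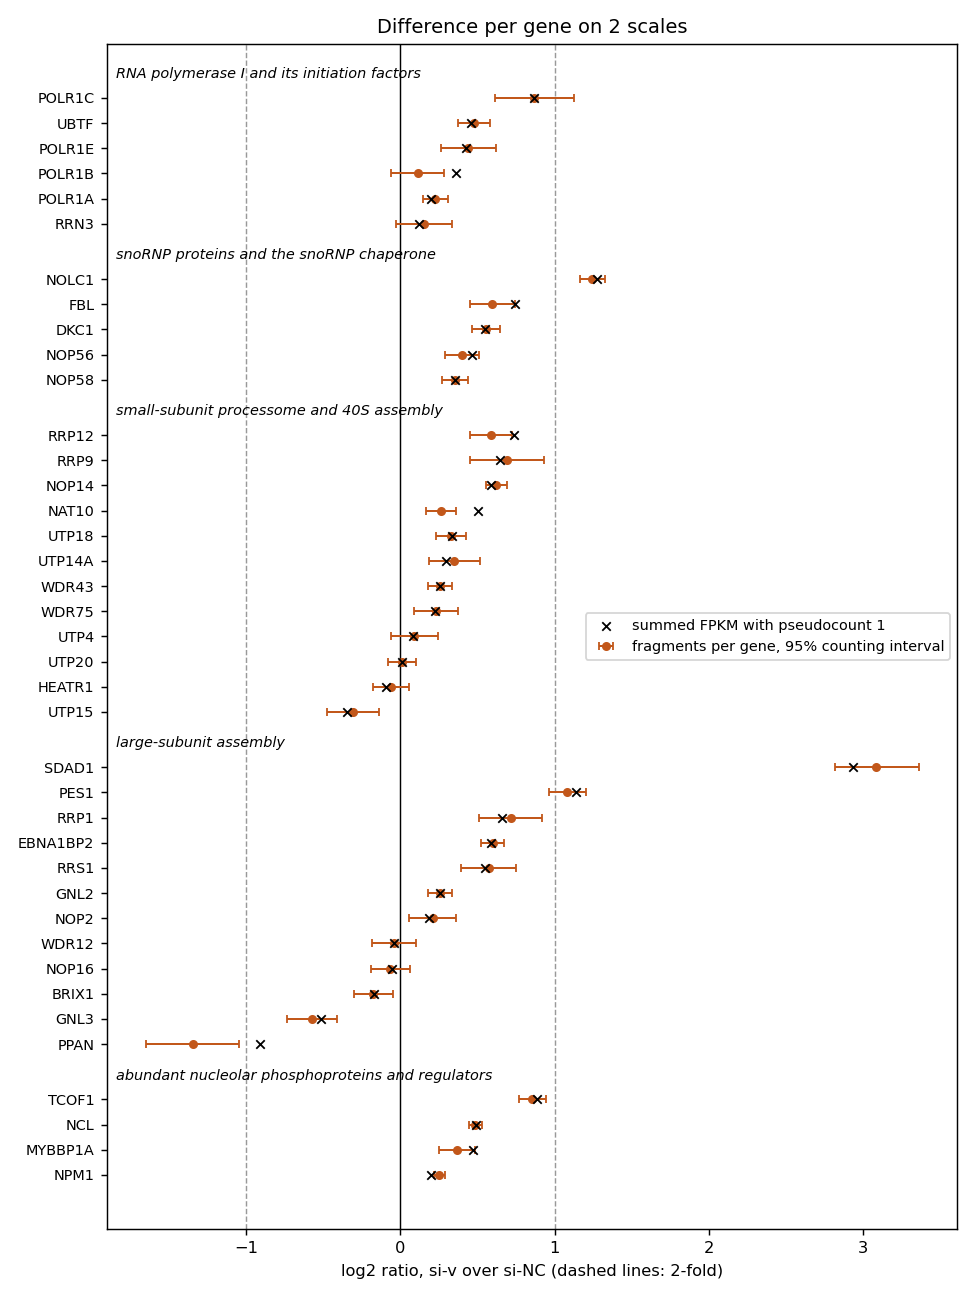
Log2 ratio of si-v over si-NC for each gene on fragments (points, with 95% counting intervals) and on summed FPKM with a pseudocount of 1 (crosses); dashed lines mark 2-fold. For 33 genes the cross lies inside the interval, while for POLR1B, NAT10, PPAN, FBL, RRP12 and NPM1 it lies outside.

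All 6 genes of RNA polymerase I and its initiation factors stood higher in the si-v library, with a median log2 ratio of 0.39. POLR1C, a subunit shared by RNA polymerases I and III, had the largest difference, at 27.1 FPKM in the si-v library and 14.4 FPKM in the control library (log2 0.87, counting interval 0.61 to 1.13). YIPF3, which overlaps POLR1C on the other strand, stood at 17.6 FPKM in si-v and 11 FPKM in control. XPO5 also overlaps it there, at 22.4 and 23.5 FPKM. With no strand setting stated in the sources used here, reads of these genes could not be told apart. UBTF, the upstream binding factor that keeps ribosomal DNA in an active state, stood at 55.0 FPKM in the si-v library and 39.7 FPKM in the control library (0.46). POLR1E, a subunit of the initiation-elongation heterodimer, stood at 28.4 FPKM in si-v and 20.9 FPKM in control (0.42). UBTF and POLR1E lay under 1.5-fold, while the counting interval of POLR1C reached past 2-fold. The catalytic subunits were closer: POLR1A, the largest subunit, stood at 18.7 FPKM in the si-v library and 16.1 FPKM in the control library (0.20). POLR1B, the second largest, stood at 13.0 FPKM in si-v and 9.96 FPKM in control (0.36). On fragments its interval was -0.06 to 0.29 and held 0, as did that of RRN3, the growth-regulated initiation factor TIF-IA, at 12.9 FPKM in si-v and 11.7 FPKM in control (0.12, interval -0.03 to 0.33).

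Although the summed POLR1B levels were close, the deposited values assign them to different transcripts. This rests on the way reads were divided among transcripts, and reads over single exons were not examined. POLR1B-204 stood at 11.8 FPKM in the si-v library and was listed at 0 in the control library. POLR1B-201 stood at 0.000243 FPKM in the si-v library and 9.46 FPKM in the control library. The transcripts differ by a coding exon of 168 bases (56 codons), which POLR1B-204 lacks, while the rest of their coding length is equal. This exon is the second of 15 in POLR1B-201 and lies at chr2:112547012-112547179 on the plus strand of GRCh38, the build of the GENCODE 29 reference and not the hg19 build of the deposited values. Listed transcripts with it held 0.00194% of the FPKM of those spanning its position in the si-v library and 95% in the control library. The transcripts also differ outside the coding part, as POLR1B-201 is 4558 bases long and POLR1B-204 is 3836. The exon is printed from the reference transcript, as the stretch by which their coding sequences differ in length.
POLR1B exon 2: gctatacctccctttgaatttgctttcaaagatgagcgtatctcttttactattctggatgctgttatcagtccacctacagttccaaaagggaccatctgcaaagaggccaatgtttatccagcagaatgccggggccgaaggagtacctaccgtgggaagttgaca

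The 5 snoRNP genes had the highest median of the roles, log2 0.55, and all stood higher in the si-v library. NOLC1 encodes Nopp140, a phosphoprotein chaperone that accompanies snoRNPs to the nucleolus. It stood at 109.7 FPKM in the si-v library and 44.7 FPKM in the control library (log2 1.28), and on fragments the interval was 1.17 to 1.33. All 5 of its listed transcripts stood higher, from NOLC1-209 at 3.32 FPKM in si-v and 2.19 FPKM in control (0.44) to NOLC1-207 at 24 and 6.02 FPKM (1.83). NOLC1-201, the most abundant, stood at 79.7 and 35.6 FPKM. FBL, the methyltransferase fibrillarin of box C/D snoRNPs, stood at 92.9 FPKM in the si-v library and 55.1 FPKM in the control library (0.74). Most of that gap lay in short transcripts, such as FBL-206 at 25.7 FPKM in si-v and 5.34 FPKM in control, and the longest, FBL-201, stood at 39.0 and 34.1 FPKM (0.19).

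The core proteins that hold box C/D snoRNAs with fibrillarin stood close to each other in size of difference. NOP56 was at 64.8 FPKM in the si-v library and 46.7 FPKM in the control library (log2 0.46). NOP58 was at 114.9 FPKM in si-v and 89.8 FPKM in control (0.35). DKC1, the pseudouridine synthase dyskerin of box H/ACA snoRNPs, was at 85.9 FPKM in the si-v library and 58.3 FPKM in the control library (0.55, interval 0.47 to 0.64).

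In the small-subunit group, 10 of 12 genes stood higher in the si-v library, with a median log2 ratio of 0.28, and 3 reached 1.5-fold. RRP12, a HEAT-repeat protein of 40S maturation and export, stood at 27.0 FPKM in the si-v library and 15.8 FPKM in the control library (0.74). RRP9, the WD-repeat protein of the U3 snoRNP, stood at 20.3 FPKM in si-v and 12.6 FPKM in control (0.65, interval 0.45 to 0.93). NOP14, a scaffold of the small-subunit processome, stood at 110.7 FPKM in the si-v library and 73.3 FPKM in the control library (0.59). All 3 were between 1.5-fold and 2-fold higher, NOP14 only just past 1.5-fold. With a pseudocount of 5, NOP14 was at 0.56 and RRP9 at 0.52, both under 1.5-fold, and RRP12 was at 0.62.

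NAT10, which acetylates cytidines in 18S ribosomal RNA and in transfer RNA, stood at 53.5 FPKM in the si-v library and 37.4 FPKM in the control library (log2 0.50). On fragments its difference was smaller (interval 0.17 to 0.36), since part of the summed FPKM came from the short NAT10-203, at 9.20 FPKM in si-v and listed at 0 in control. Among the t-UTP and UTP-B proteins, which bind early to the precursor, 3 stood higher by less than 1.5-fold with intervals wholly above 0. UTP18 stood at 87.7 FPKM in the si-v library and 69.3 FPKM in the control library (0.33), WDR43 at 75.2 and 62.7 FPKM (0.26), and WDR75 at 27.0 and 23.0 FPKM (0.22). UTP14A, a partner of the helicase DHX37, stood at 23.0 FPKM in si-v and 18.5 FPKM in control (0.30).

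The remaining genes of this group were near 0 or below it. UTP4, mutated in North American Indian childhood cirrhosis, stood at 27.5 FPKM in the si-v library and 25.9 FPKM in the control library (log2 0.08). UTP20, a large scaffold protein of the processome, stood at 19.2 FPKM in si-v and 19.0 FPKM in control (0.01), and HEATR1, a t-UTP protein, at 11.9 and 12.7 FPKM (-0.09), and the counting intervals of all 3 held 0. UTP15, a t-UTP protein that also supports ribosomal DNA transcription, was the lowest, at 11.7 FPKM in the si-v library and 15.1 FPKM in the control library (-0.35, interval -0.47 to -0.14). With the median of genes of like GC content taken off it was at -0.17.

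The deposited values of RRP12 were also assigned to different transcripts in the 2 libraries. Here too the way reads were divided among transcripts was not checked. RRP12-202 stood at 0.583 FPKM in the si-v library and 14.5 FPKM in the control library. RRP12-201 stood at 11.6 FPKM, RRP12-203 at 4.12 FPKM and RRP12-211 at 6.38 FPKM in the si-v library, and all 3 were listed at 0 in the control library. Read from its most abundant transcript over both libraries, RRP12-202, the log2 ratio was -3.29, opposite in sign to that of the gene. RRP12-211 has the coding length of RRP12-202 (3891 bases) and 1 exon more. RRP12-201, with 3591 coding bases, skips 3 neighbouring coding exons of 77, 106 and 117 bases, the fourth to sixth of 34, on the minus strand of GRCh38 at chr10:97393684-97393760, chr10:97390739-97390844 and chr10:97390423-97390539. Listed transcripts that hold the first of these exons made up 30.7% of the FPKM spanning it in the si-v library and 100% in the control library. The 3 exons are printed in transcript order.
RRP12 exon 4: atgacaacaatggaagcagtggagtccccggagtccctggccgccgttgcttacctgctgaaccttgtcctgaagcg
RRP12 exon 5: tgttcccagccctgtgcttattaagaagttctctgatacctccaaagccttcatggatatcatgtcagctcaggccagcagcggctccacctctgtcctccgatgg
RRP12 exon 6: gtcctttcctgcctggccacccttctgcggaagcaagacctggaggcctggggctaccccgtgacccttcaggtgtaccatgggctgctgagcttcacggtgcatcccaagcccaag

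Large-subunit assembly genes were the most divided of the roles: 7 of 12 stood above 0 and 5 below, with a median log2 ratio of 0.22. SDAD1, the human counterpart of a yeast 60S export factor, had the largest difference of all 39 genes. It stood at 34.9 FPKM in the si-v library and 3.70 FPKM in the control library (log2 2.93), on about 1151 and 126 fragments (interval 2.82 to 3.36). Of 10 annotated SDAD1 transcripts 2 are classed as protein-coding, and the 2 listed in these data were both higher. SDAD1-201 stood at 14.3 FPKM in si-v and 3.70 FPKM in control, and SDAD1-203 stood at 20.6 FPKM in si-v and was listed at 0 in control. SDAD1-203 lacks a coding exon of 111 bases (37 codons), the fourth of 22, at chr4:75977646-75977756 on the minus strand of GRCh38. Transcripts with this exon made up 40.9% of the SDAD1 FPKM in the si-v library and 100% in the control library. These shares rest on the way reads were divided among transcripts, which was not checked. The annotation also names 4 pseudogenes after SDAD1, with which reads may be shared.
SDAD1 exon 4: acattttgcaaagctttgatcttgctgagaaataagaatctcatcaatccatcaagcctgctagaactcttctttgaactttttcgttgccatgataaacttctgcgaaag

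PES1 and WDR12 encode partners in the PeBoW complex, which is needed to process the precursor of the large-subunit RNA, and they did not differ alike. PES1 stood at 76.6 FPKM in the si-v library and 34.1 FPKM in the control library (log2 1.14, interval 0.96 to 1.2). WDR12 stood at 8.51 FPKM in si-v and 8.77 FPKM in control (-0.04, interval -0.18 to 0.10). With the median of genes of like GC content taken off, PES1 was at 1.0, just under the 2-fold line, and WDR12 at 0.13. PES1-201, the most abundant PES1 transcript in the si-v library, stood at 35.8 FPKM in si-v and 13.2 FPKM in control. PES1-202, the most abundant in the control library, stood at 30.4 FPKM in si-v and 18.8 FPKM in control.

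Other genes of 60S assembly stood higher by less. RRP1 was at 15 FPKM in the si-v library and 9.13 FPKM in the control library (log2 0.66). EBNA1BP2, the counterpart of yeast Ebp2, was at 238 FPKM in si-v and 158 FPKM in control (0.59), and RRS1, a factor that brings the 5S particle into the subunit in yeast, at 32.4 and 21.8 FPKM (0.55). The GTPase gene GNL2 was at 110.7 FPKM in the si-v library and 92.5 FPKM in the control library (0.26), and NOP2, a cytosine methyltransferase of 28S ribosomal RNA, at 25.9 and 22.6 FPKM (0.18). NOP2 had 11 listed transcripts, of which NOP2-207 stood at 11.5 FPKM in si-v and 5.0 FPKM in control and NOP2-203 at 2.31 and 6.24 FPKM, so its small sum joins opposite differences.

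Against this direction, GNL3, the nucleolar GTPase nucleostemin, stood at 22.3 FPKM in the si-v library and 32.2 FPKM in the control library (log2 -0.51, interval -0.74 to -0.41). PBRM1, which overlaps GNL3 on the other strand, stood at 14.5 FPKM in si-v and 33.1 FPKM in control. GLT8D1, which also overlaps it there, stood at 22.3 FPKM in si-v and 19.2 FPKM in control. Since no strand setting is stated in the sources used here, reads of these genes could not be told apart. BRIX1, a factor of pre-60S particles, stood at 42.1 FPKM in the si-v library and 47.5 FPKM in the control library (-0.17, interval -0.30 to -0.05). NOP16 stood at 72.2 FPKM in si-v and 75 FPKM in control (-0.05), and its interval held 0.

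PPAN, the counterpart of yeast Ssf1 in 60S assembly, was the lowest of the set, at 8.84 FPKM in the si-v library and 17.5 FPKM in the control library (log2 -0.91). On fragments it was lower still, at -1.34, and the counting interval of -1.65 to -1.04 lay wholly past 2-fold. Its transcript PPAN-201 stood at 3.12 FPKM in si-v and 15.1 FPKM in control, while the shorter PPAN-204 stood at 4.09 and 1.64 FPKM. PPAN-P2RY11, whose transcripts run through PPAN into the next gene, stood at 18 FPKM in the si-v library and 2.96 FPKM in the control library (log2 2.26). Added together, the 2 genes stood at 26.9 FPKM in the si-v library and 20.4 FPKM in the control library (log2 0.38), so the direction at PPAN turned with this choice. The readthrough gene held 67.1% of that sum in si-v and 14.5% in control. On fragments the pair held about 707 in si-v and 397 in control, and the counting interval of its log2 ratio was 0.55 to 0.91. As these transcripts share most of the PPAN exons, how StringTie divided the reads bears on both values.

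**Figure D3:**
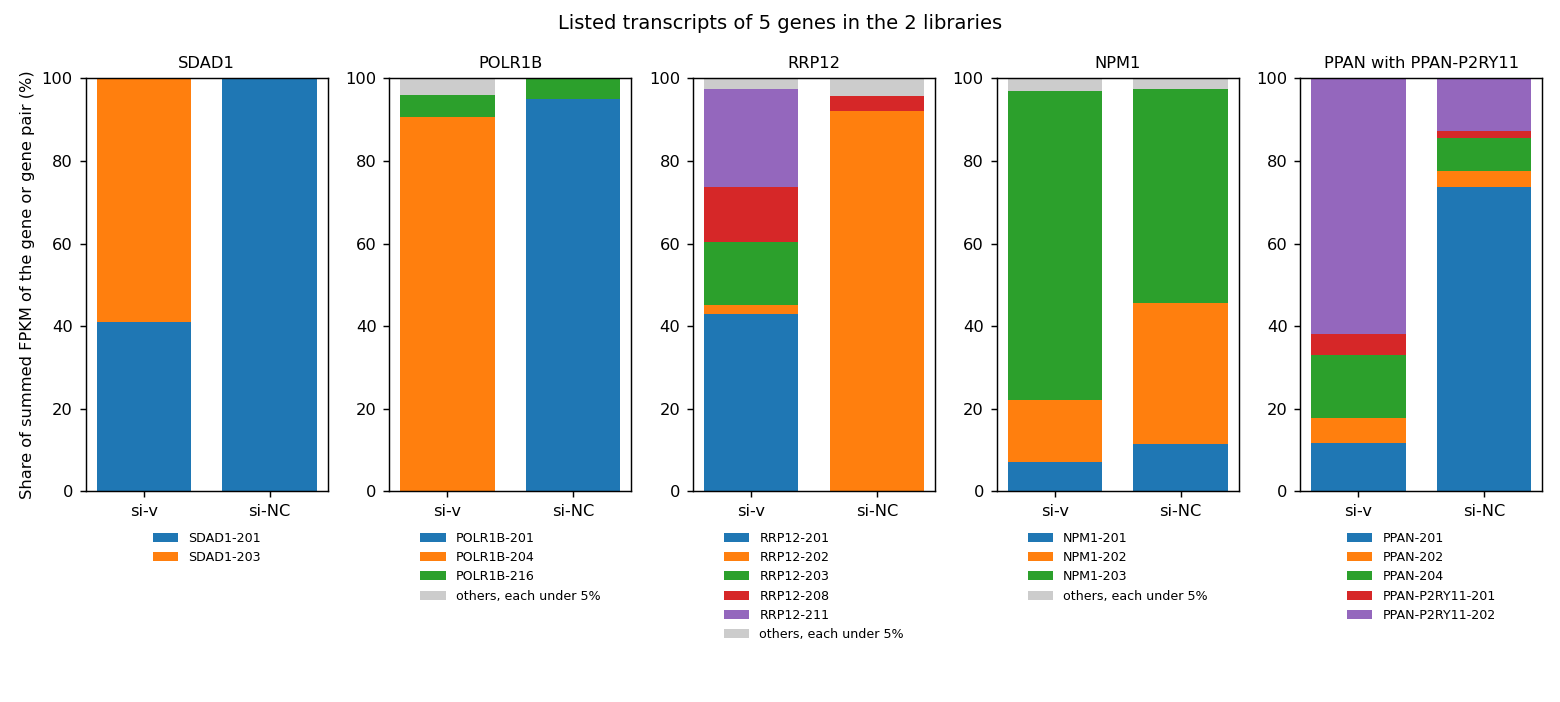
Share of each listed transcript in the summed FPKM of SDAD1, POLR1B, RRP12, NPM1 and the pair PPAN and PPAN-P2RY11, in the si-v library (left bar) and the si-NC control library (right bar). POLR1B-204 makes up 90.7% of POLR1B in the si-v library, and POLR1B-201 makes up 95% in the control library.

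A different transcript was the most abundant in each library for 6 of the 30 genes with at least 2 listed transcripts (20.0%). These were POLR1B, RRP12, PES1, NOP2, PPAN and SDAD1. Over all genes past 1 FPKM with as many listed transcripts the share was 26.4%, so such a difference was no more frequent in this set than in the table as a whole. Without these 6 genes the median log2 ratio of the other 33 was 0.35, and 8 were 1.5-fold higher. Of the 3 genes that were 2-fold higher, NOLC1 alone was then counted. The same removal was not made over all genes, so these counts have no matching share beside them.

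The 4 abundant nucleolar phosphoproteins and regulators all stood higher in the si-v library. TCOF1, the treacle protein that recruits factors to ribosomal DNA and is mutated in Treacher Collins syndrome, stood at 62.1 FPKM in the si-v library and 33.1 FPKM in the control library (log2 0.89, interval 0.77 to 0.94). NCL, the RNA-binding protein nucleolin, stood at 261 FPKM in si-v and 186 FPKM in control (0.49, interval 0.44 to 0.53). MYBBP1A, a MYB-binding nucleolar protein that restrains ribosomal DNA transcription, stood at 31.1 FPKM in the si-v library and 22.2 FPKM in the control library (0.47). Of the 9 listed TCOF1 transcripts 7 stood higher, while TCOF1-203 stood at 3.04 FPKM in si-v and 7.01 FPKM in control and TCOF1-212 at 0.621 and 1.75 FPKM.

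NPM1, the histone and ribosome chaperone nucleophosmin, had the highest level of the set. It stood at 758 FPKM in the si-v library and 661 FPKM in the control library (log2 0.20). Its transcripts differed in direction: NPM1-203, with 777 coding bases, stood at 567 FPKM in si-v and 342 FPKM in control. NPM1-201, with 882 coding bases, stood at 54.2 FPKM in the si-v library and 75.5 FPKM in the control library, and NPM1-202, which lacks the eighth exon, at 114 and 226 FPKM. Listed transcripts with this 87-base exon (chr5:171400839-171400925, plus strand of GRCh38) made up 84.4% of the FPKM spanning it in the si-v library and 64.9% in the control library. The annotation names 45 pseudogenes after NPM1, so the division of its reads is uncertain.
NPM1 exon 8: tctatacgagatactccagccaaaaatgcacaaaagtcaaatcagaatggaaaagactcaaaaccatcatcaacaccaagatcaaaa

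The other genes of the pathway were read from a list of 119 further ribosome biogenesis genes, all of which passed 1 FPKM. They leaned the same way by less: 74 stood above 0 (62.2%, against 50.4% of all genes) and 45 below, with a median log2 ratio of 0.14. At 2-fold 3 of the 119 were higher and 1 lower, beside 2.37% and 2.49% of all genes. At 1.5-fold 13 were higher and 3 lower, beside 9.82% and 8.91%. The upward counts were thus close to the shares of all genes, and the downward counts lay under them. The lean lay in subunit assembly. Other large-subunit factors had a median of 0.27 with 33 of 44 higher, and other small-subunit factors one of 0.26 with 27 of 40 higher. Other RNA polymerase I genes had a median of -0.09 with 4 of 9 higher, other snoRNP genes one of -0.05 with 4 of 12 higher, and genes of the exosome, the nuclease that trims precursor ends, one of -0.11 with 6 of 14 higher. For polymerase I and snoRNP genes, the members and the further genes of the same role thus had medians of opposite sign. Both lists were chosen with earlier results of these data known, and the difference was not tested.

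Among the further genes, DDX47, a helicase of the small-subunit pathway, stood at 20.5 FPKM in the si-v library and 5.78 FPKM in the control library (log2 1.67). RPF2, which with RRS1 brings in the 5S particle, stood at 56.4 FPKM in si-v and 18.5 FPKM in control (1.56), and NOP53, a large-subunit factor, at 60.2 and 20.8 FPKM (1.49). NOL8 was the lowest, at 4.75 FPKM in the si-v library and 21.0 FPKM in the control library (-1.94). NGDN was at 5.06 FPKM in si-v and 9.89 FPKM in control (-0.85), the exosome nuclease DIS3 at 5.97 and 10.6 FPKM (-0.74), and the exosome helicase MTREX at 12.6 and 7.5 FPKM (0.67). RUVBL2, an ATPase of snoRNP assembly, stood at 86.2 FPKM in the si-v library and 57.8 FPKM in the control library (0.57).

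Of the polymerase I genes outside the set, TAF1D, a factor of the promoter complex SL1, stood at 10.4 FPKM in the si-v library and 15.1 FPKM in the control library (log2 -0.50). The subunit genes TWISTNB, CD3EAP and ZNRD1 had log2 ratios of -0.34, 0.08 and 0.39, and CD3EAP was at -0.56 on its most abundant transcript and -0.11 with the GC content trend removed. Among snoRNP genes, the H/ACA proteins NAF1 and NHP2 had log2 ratios of -0.42 and -0.22, and PIH1D1, an assembly factor, one of 0.49. On its most abundant transcript NHP2 was at 0.21, and on fragments at -0.05. In the subunit pathways NOL6 was at 0.64, UTP23 at -0.28 and the helicase gene DDX18 at -0.19. The exosome subunit EXOSC4 was at 0.54 and EXOSC2 at -0.51, which was 0.40 on its most abundant transcript and 0.13 on fragments. The further genes named here and above were picked as the highest and lowest of their role among those past 5 FPKM. On summed FPKM they stood on both sides of 0 in every role. That choice largely sets this spread, so it does not describe a role as a whole.

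**Figure D4:**
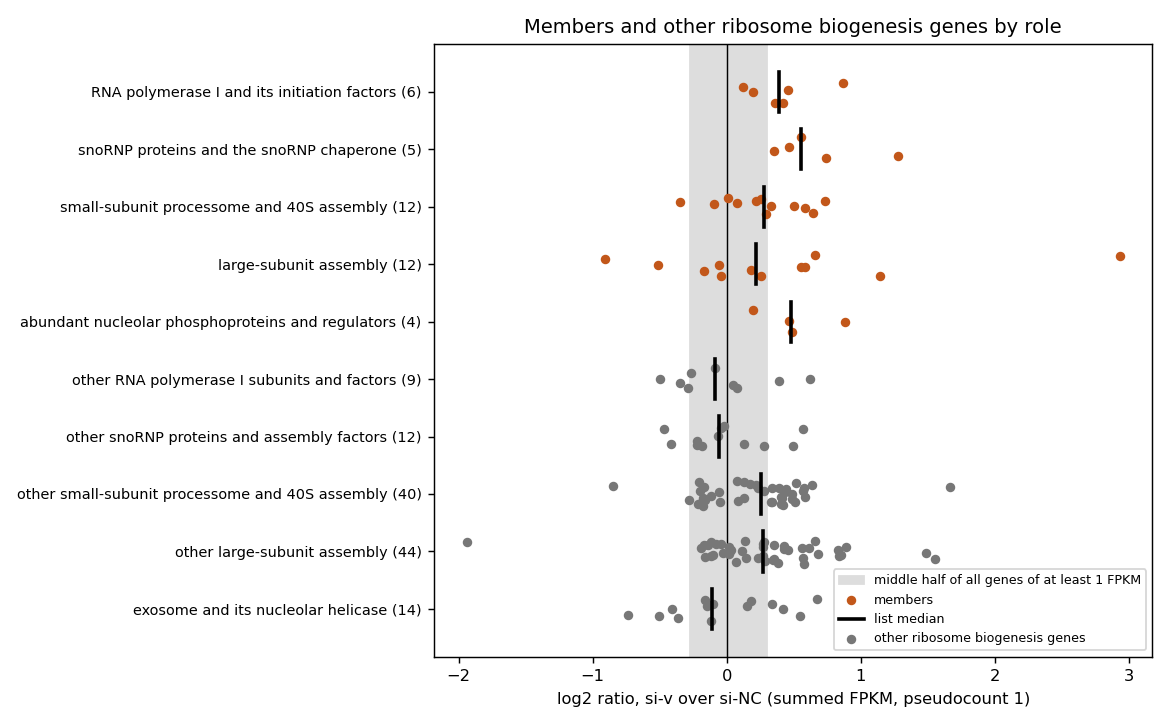
Log2 ratio of si-v over si-NC for the members (5 upper rows) and for 119 other ribosome biogenesis genes (5 lower rows) by role, with the list median as a bar and the interquartile range of all genes past 1 FPKM in grey. Medians of the member rows lie between 0.22 and 0.55, and those of the lower rows between -0.11 and 0.27.

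Promoter letters were not used to choose these genes. RefSeq windows on GRCh38.p14, from 250 bases before to 50 after a gene's start, were matched by symbol for 33 of the 39 genes, all but POLR1E, NOP58, NOLC1, RRP12, RRS1 and TCOF1. The E-box CACGTG, which reads the same on both strands, was found in a window of 16 of the 33 genes (48.5%), against 12.9% of the 8875 matched genes past 1 FPKM and 7.26% of all 35116 windows. Genes with an E-box had a median log2 ratio of 0.40, from GNL3 at -0.51 to SDAD1 at 2.93. Genes without it had a median of 0.20, from PPAN at -0.91 to POLR1C at 0.87, so the ranges overlapped widely, and these groups were not tested. A match in such a window describes its letters and shows no binding.

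Windows of 4 genes are printed with the E-box in capitals: the highest, PES1 and FBL above 1.5-fold, and GNL3, which has the E-box and stood lower. They lie at chr4:75990896-75991195 on the minus strand for SDAD1, chr22:30591861-30592160 on the minus strand for PES1, chr19:39846330-39846629 on the minus strand for FBL and chr3:52685782-52686081 on the plus strand for GNL3, all on GRCh38.p14 from RefSeq. In PES1, FBL and GNL3 the E-box lies just downstream of the annotated start, and in SDAD1 near the upstream end of the window.
SDAD1: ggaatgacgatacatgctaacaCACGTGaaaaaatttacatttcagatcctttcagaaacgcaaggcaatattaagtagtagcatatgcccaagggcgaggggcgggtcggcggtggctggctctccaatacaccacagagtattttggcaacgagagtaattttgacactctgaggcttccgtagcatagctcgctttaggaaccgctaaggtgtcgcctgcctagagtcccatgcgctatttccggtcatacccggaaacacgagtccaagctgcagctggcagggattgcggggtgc
PES1: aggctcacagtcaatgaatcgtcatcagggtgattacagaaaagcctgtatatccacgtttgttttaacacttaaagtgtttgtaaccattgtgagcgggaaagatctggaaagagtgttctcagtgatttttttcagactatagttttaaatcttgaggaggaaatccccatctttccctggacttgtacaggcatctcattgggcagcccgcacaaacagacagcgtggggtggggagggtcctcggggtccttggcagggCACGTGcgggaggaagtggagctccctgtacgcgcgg
FBL: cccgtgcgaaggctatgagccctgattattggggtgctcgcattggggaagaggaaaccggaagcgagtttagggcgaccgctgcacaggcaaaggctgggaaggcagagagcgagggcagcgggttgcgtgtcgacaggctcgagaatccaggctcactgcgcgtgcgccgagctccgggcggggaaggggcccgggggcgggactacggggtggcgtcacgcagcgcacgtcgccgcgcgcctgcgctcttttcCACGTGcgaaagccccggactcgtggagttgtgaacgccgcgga
GNL3: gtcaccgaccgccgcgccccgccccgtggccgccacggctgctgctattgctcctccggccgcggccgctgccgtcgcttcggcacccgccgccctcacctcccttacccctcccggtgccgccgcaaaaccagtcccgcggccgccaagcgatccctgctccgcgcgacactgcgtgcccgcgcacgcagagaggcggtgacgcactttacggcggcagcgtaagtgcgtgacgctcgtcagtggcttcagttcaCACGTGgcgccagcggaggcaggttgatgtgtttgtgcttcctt

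**Figure D5:**
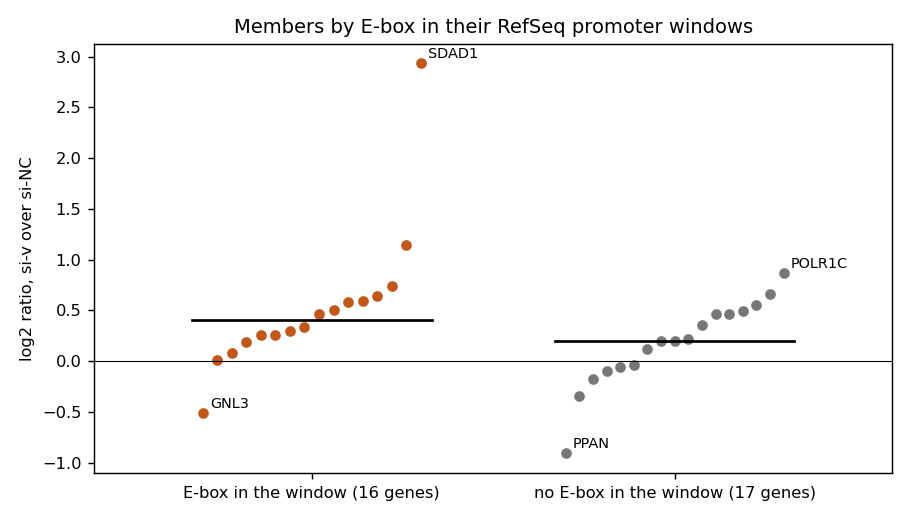
Log2 ratio of si-v over si-NC for the 16 genes with an E-box in their RefSeq promoter window (left) and the 17 without (right), sorted within each column, with the median as a bar. Medians are 0.40 and 0.20, and both columns hold genes on either side of 0.

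Several of these genes also carry small nucleolar RNAs in their span on the same strand. In the annotation, 7 of the 39 genes held such snoRNA genes (17.9%), 25 in all, against 1.74% of genes past 1 FPKM. They were DKC1 with 2, GNL3 with 6, NCL with 3, NOP56 with 5, NOP58 with 4, PPAN with 2 and WDR43 with 3. On summed FPKM the host messenger RNAs did not share a direction: 5 stood between 0.26 and 0.55 in log2 ratio, and GNL3 and PPAN at -0.51 and -0.91. Both lower values are uncertain. PPAN stood at 0.38 with its readthrough gene added, and reads of GNL3 could not be told apart from those of overlapping genes. Among the higher hosts, the annotation names 3 pseudogenes after NOP56 and 2 after NCL, with which reads may be shared. It names 0 after DKC1, NOP58 and WDR43. The levels of the snoRNAs were not analysed here.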

How the data were processed

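RNA from 2 libraries of MDA-MB-231 cells, 1 per group, was processed by the authors with cutadapt, HISAT2 2.0.5 and StringTie on hg19, per the submitters' processing notes. The deposited values are read here as FPKM, since their header names no unit, while for the annotation release, strand and filters nothing is given in the sources used here. The authors' table holds 39605 transcripts; their IDs were matched without version to GENCODE release 29 (99.5%, 179 unmatched), which is on another build and gave symbols, lengths, GC content, exons and sequences. FPKM was summed per gene, genes of at least 1 FPKM in 1 library were kept (11046), and the log2 ratio used a pseudocount of 1, which understates differences of low genes. On the listed transcripts the libraries held about 8478780 fragments (si-v) and 8036940 (control), from a peak among low values times length (82.5 and 88.8), counted within 5% of each candidate value. Intervals cover counting error at 95% only.

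The genes named are each gene of the set, readthrough genes that contain one, MYC, THAP7, and the 2 highest and 2 lowest further genes of each role among those at 5 FPKM or more in 1 library. The members and lists were chosen with earlier results of these data known. With a single library on each side, no test was run. The 2-fold call and the counting interval were also tested on simulated fragment counts per gene. The other steps were not tested in this way. Alternatives were other pseudocounts, filters, scalings and gene values. Python 3.11.15, pandas 2.3.3, numpy 2.4.6, scipy 1.17.1 and matplotlib 3.10.9 were used.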

Additional observations from a re-analysis of the deposited data

How the results depend on the processing

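No paired analysis was possible because each group is 1 library. The set's median log2 ratio, 0.36, was 0.39 with a pseudocount of 0.1, 0.34 with one of 5, 0.30 when scaled without mitochondrially encoded genes, 0.39 on the most abundant transcript only, 0.38 with the readthrough gene added to PPAN, and 0.40 with the GC content trend removed. That last setting, and the removal of the genes whose most abundant transcript differs, were chosen after seeing the data. The median of the further ribosome biogenesis genes, 0.14, was 0.12 with a pseudocount of 5, 0.18 with a filter of 5 FPKM, 0.080 when scaled without mitochondrially encoded genes, 0.19 on the most abundant transcript, 0.16 on fragments, and 0.20 with the GC trend removed.

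Counts of the set moved as follows. Genes 1.5-fold higher numbered 7 in place of 11 with a pseudocount of 5 (4.10% of all genes) and with the GC trend removed (7.83%). They numbered 9 when the libraries were scaled to an equal median ratio (9.67%) and 8 when scaled without mitochondrially encoded genes (7.86%). On the most abundant transcript 5 were 2-fold higher (6.33% of all genes), 2 were 2-fold lower (6.55%) and 3 were 1.5-fold lower (14.4%). At 2-fold 1 was lower on fragments (3.29% of all genes) and 1 with the GC trend removed (2.48%). Without the genes whose most abundant transcript differs, 1 was 2-fold higher, and no share of all genes was computed for that removal. With the readthrough gene added, 0 were 1.5-fold lower, and PPAN stood at 0.38. RRP12 stood at -3.29 on its most abundant transcript. Of 619 values of 62 named genes under the alternatives, 13 had another sign than the main value, in 10 genes; the cause was not tested.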

Other observations

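Of the 39 genes, 19 are overlapped by a gene on the other strand and 13 by a protein-coding one in the annotation. At POLR1C, YIPF3 stood at 17.6 FPKM in the si-v library and 11 FPKM in the control library, and XPO5 at 22.4 and 23.5 FPKM. At UTP4, CHTF8 stood at 11.8 FPKM in si-v and 17.1 FPKM in control. UTP4-201 stood at 1.43 FPKM in the si-v library and 7.43 FPKM in the control library, while UTP4-203 stood at 23.3 and 16.0 FPKM. At RRN3, PDXDC1 stood at 21.7 FPKM in both libraries.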
